A study of Canis lupus familiaris with 6 samples.

Results

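The lysosomal genes described here are 40 genes chosen by symbol: 10 proteases, 8 glycosidases, 5 genes of lysosomal lipid breakdown, 5 lysosomal membrane proteins, 10 subunits of the vacuolar proton pump (V-ATPase) and the transcription factors TFEB and TFE3. Of the 40, 39 were among the 41401 gene symbols in the data, and all 39 were among the 12125 genes tested, which averaged 1 FPKM or more over the libraries. The protease gene CTSL was not analysed here. FPKM divides a gene's fragments by its transcript length and by the library's mapped fragments, so levels can be set side by side between genes.

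The cells were MDCK, an epithelial line from canine kidney, and the series concerns the loss of cellular magnesium. Clone D7 and clone F22, which are labelled PRL2-/-; PRL1+/-, are 1 clonal line each, and the third line was wild type. Each line received either PRL1 siRNA (knockdown) or control siRNA, with RNA extraction 18 h after a repeat transfection. PRL1 and PRL2 are phosphatases, encoded by PTP4A1 and PTP4A2, that bind CNNM magnesium transporters. Each line gave 1 library per treatment, 6 in all, and nothing in the labels ties them to separate cultures. The p-values of the knockdown effect therefore reflect how far that effect differs between these particular lines, with variances moderated over all genes tested. In bulk RNA such as this, fewer cells of a type and less RNA per cell cannot be told apart.

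Lysosomes break down proteins, glycans, lipids and nucleic acids with hydrolases that work at acid pH. The V-ATPase makes that pH by pumping protons, and its peripheral V1 sector burns ATP to drive the V0 sector that sits in the membrane. TFEB and TFE3 bind promoters of many lysosomal genes, and they are held in the cytoplasm when the kinase complex mTORC1 phosphorylates them at the lysosomal surface.

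The siRNA target PTP4A1 had 37.8, 37.8 and 33.1 FPKM in the knockdown libraries of D7, F22 and wild type, against 61.7, 69.9 and 63.5 FPKM in their control libraries. PTP4A2 RNA was present in both clones, with 69.1 and 48.3 FPKM after knockdown and 80.4 and 56.7 FPKM under control siRNA in D7 and F22, so its RNA level does not check the knockout label. Wild type had 59.0 FPKM after knockdown and 72.7 FPKM under control siRNA. PTP4A2 was thus also lower after PRL1 siRNA, with changes of -14.1%, -14.8% and -18.9% in D7, F22 and wild type. It was called lower by the test described below. All 9 kidney epithelial markers were at 3.08 FPKM or more in every library, and CDH16 and PAX8 were higher while CDH1, EPCAM, KRT18, TJP1 and OCLN were lower after knockdown. The absolute depth of the libraries is unknown. With the wild-type control library set to 1, relative depth was 0.768 and 0.853 in the knockdown and control libraries of D7, 0.868 and 0.917 in those of F22, and 0.860 in the wild-type knockdown library. Depth was thus lower with knockdown in each line. The part of depth and of the epithelial markers in the results below was not tested.

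Lysosomal genes moved in both directions after PRL1 knockdown, with more of them higher than lower. Of the 39 genes, 18 rose, 5 fell and 16 did not pass the test, which fitted treatment and line together over the 6 libraries (limma on log2(FPKM + 1), Benjamini-Hochberg adjusted p under 0.05). Over all 12125 genes, 17.6% rose and 21.7% fell, 39.3% in all, while 46.2% of the lysosomal genes rose and 12.8% fell. The genes were chosen with earlier results of these data known, so these shares and those of the groups below are a description. The median log2 fold change was 0.12 over the 39 genes and -0.01 over all genes tested. In 15 of the 39, all 3 knockdown libraries were above all 3 control libraries, which held for 12.6% of all genes, and in 2 of the 39 all 3 were below, which held for 16.2%. Counted line by line, 27 genes were higher with knockdown in all 3 lines, against 31.6% of all genes, 6 were lower in all 3, against 35.8%, and 6 were mixed.

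These calls depend on comparing knockdown and control within each line. Without the line term 1 of the 23 calls remained, that of CTSH, with a limma adjusted p = 0.0280, and over all genes 416 remained of 4762. The 9 genes that kept their call when each line was left out in turn were CTSA, CTSB, CTSC, CTSD, CTSH, CTSS, ASAH1, SCARB2 and ATP6V0D1. Of the 23 calls, 10, 11 and 20 remained without D7, F22 and wild type. Those fits called 1709, 2421 and 4037 of all 12125 genes. The share of all genes called in every such fit is not given here. Together the 39 genes made up 0.732%, 0.776% and 0.818% of all FPKM in the knockdown libraries of D7, F22 and wild type, against 0.635%, 0.679% and 0.721% in their control libraries.

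**Figure D1:**
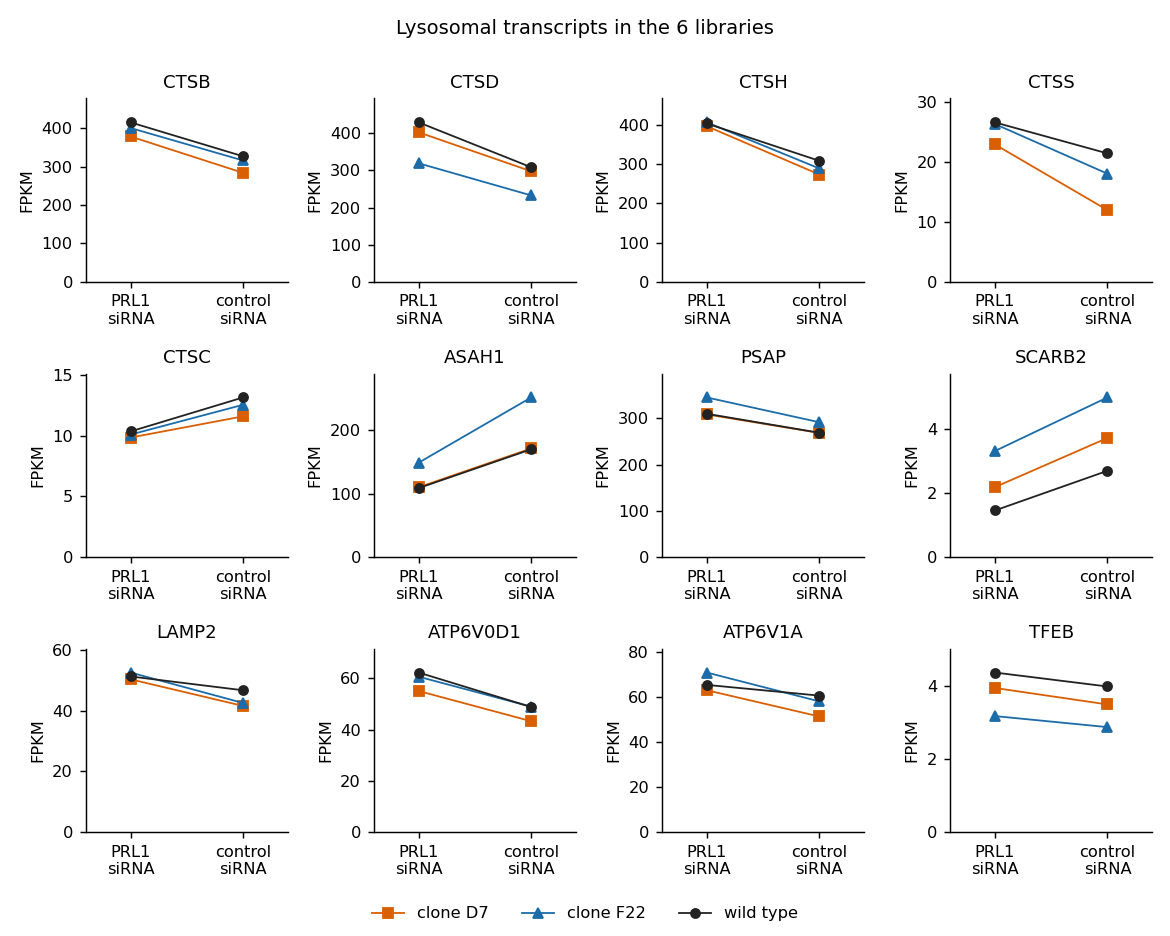
FPKM of selected lysosomal genes (1 panel each, linear axes from 0) with PRL1 siRNA and with control siRNA, where each point is 1 library and a line joins the libraries of clone D7, clone F22 or wild type. ASAH1, CTSC and SCARB2 are lower with PRL1 siRNA in all 3 lines, and the other panels are higher in all 3.

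**Figure D2:**
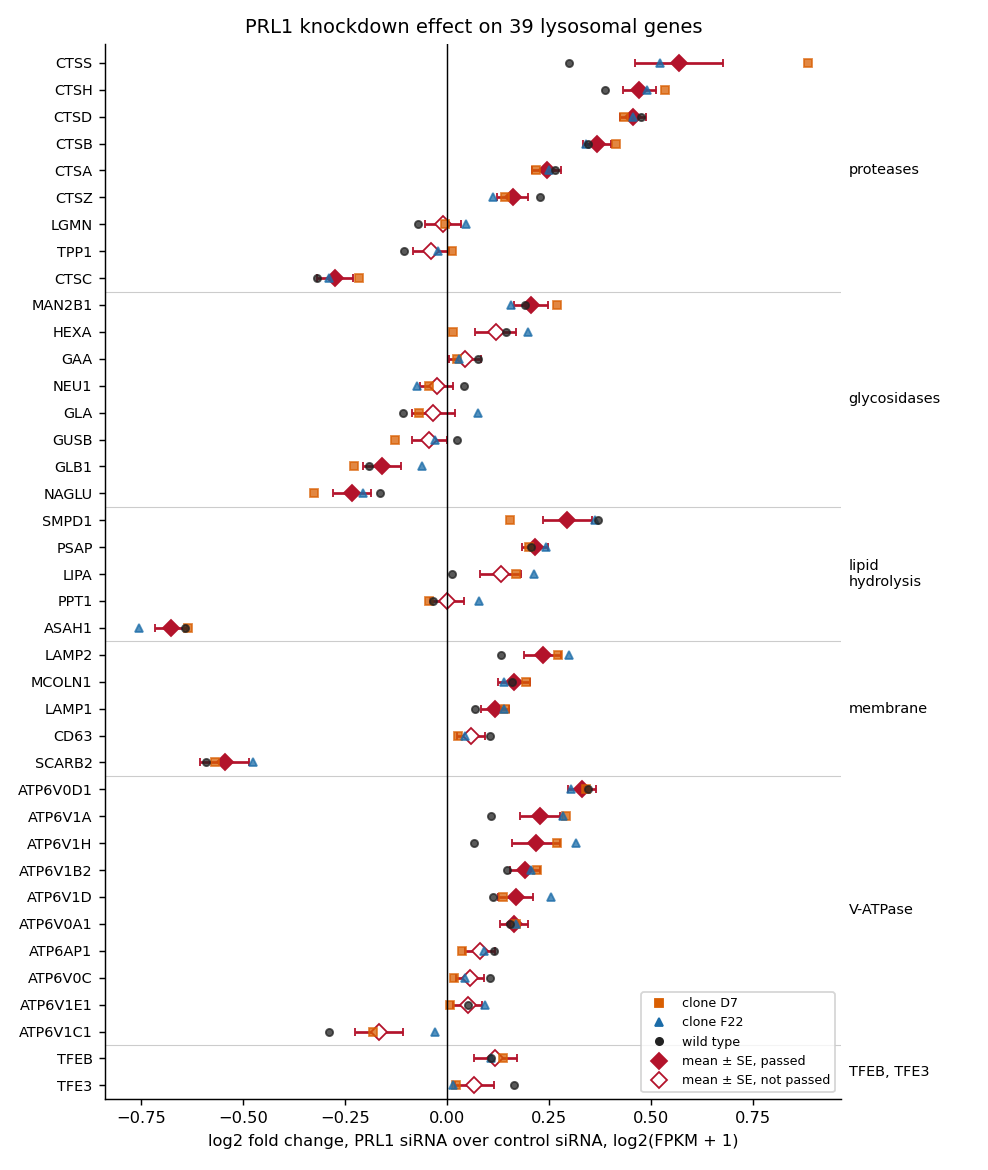
Log2 fold change of log2(FPKM + 1), knockdown minus control, for each lysosomal gene, with 1 point per line. The mean over lines has its moderated standard error from limma and is filled where it passed. CTSS and CTSH lie farthest to the higher side, at 0.57 and 0.47, and ASAH1 and SCARB2 farthest to the lower side, at -0.68 and -0.54.

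The most abundant hydrolases were the cathepsins CTSB, CTSH and CTSD, and these were also among the genes that rose. The proteases as a group had 6 rises, 1 fall and 2 genes that did not pass (66.7% rose, against 17.6% of all genes), with a median log2 fold change of 0.24 and medians of 0.22, 0.25 and 0.26 within D7, F22 and wild type. Their summed level was 1459.7, 1444 and 1548 FPKM in the knockdown libraries of D7, F22 and wild type, against 1104.8, 1127 and 1208 FPKM in their control libraries.

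CTSD, the main aspartic protease of the lysosome, had 403, 319 and 429.6 FPKM in the knockdown libraries of D7, F22 and wild type, and 298, 233 and 309 FPKM in their control libraries. Every knockdown library was above every control library, and F22 was the lowest line under both treatments. The log2 fold change was 0.46 ± 0.03 (limma adjusted p = 0.00138). Each ± on a log2 fold change, here and below, is the moderated SE from limma, whose variance is partly pooled over genes. CTSB, a cysteine protease that acts as an endopeptidase and also removes C-terminal dipeptides, had 379, 401 and 416 FPKM with knockdown and 284, 316 and 327 FPKM with control siRNA in D7, F22 and wild type. Its groups did not overlap either, and the log2 fold change was 0.37 ± 0.03 (limma adjusted p = 0.00191).

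CTSH, an aminopeptidase, was level across lines with knockdown. It had 397, 406 and 403 FPKM in the knockdown libraries and 273, 289 and 308 FPKM in the control libraries of D7, F22 and wild type, averaging 402 ± 5.03 and 290.2 ± 17.5 FPKM (SD, n = 3). The log2 fold change was 0.47 ± 0.04, and all knockdown libraries were above all control libraries (limma adjusted p = 0.00172).

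CTSS, a cysteine protease known for trimming the invariant chain in antigen-presenting cells, had the widest spread between lines among the genes that rose. Its mean rise was above those of the others over the 3 lines, but without D7 it was 0.41, below CTSD at 0.47 and CTSH at 0.44. It had 22.9, 26.3 and 26.6 FPKM in the knockdown libraries of D7, F22 and wild type, against 12.0, 18.04 and 21.4 FPKM in their control libraries. The knockdown libraries lay close together and above all controls, while the controls differed by line, with D7 lowest. Within lines the log2 fold change was 0.88 in D7, 0.52 in F22 and 0.30 in wild type, and the estimate over lines was 0.57 ± 0.11 (limma adjusted p = 0.0120). Since CTSS is abundant in macrophages, macrophage markers were read beside it. The summed level of 9 such markers was 7.31, 4.98 and 6.12 FPKM in the knockdown libraries of D7, F22 and wild type, against 6.39, 5.77 and 5.41 FPKM in their control libraries. CD14 made up most of that sum, and PTPRC, MARCO and C1QA were listed at 0 in every library.

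CTSA and CTSZ are carboxypeptidases, and CTSA also protects GLB1 and NEU1 in a complex with them. CTSA had 26.4, 27.3 and 32.5 FPKM with knockdown and 22.6, 22.8 and 26.9 FPKM with control siRNA in D7, F22 and wild type. It rose in each line, but the wild-type control library was above the D7 knockdown library, so the groups overlapped, and the log2 fold change was 0.24 ± 0.04 (limma adjusted p = 0.00591). CTSZ had 199, 231 and 205 FPKM with knockdown against 181, 214 and 175 FPKM with control siRNA, also with overlap. Its log2 fold change was 0.16 ± 0.04 (limma adjusted p = 0.0214), and it was not called without D7 (adjusted p = 0.108) or without F22 (adjusted p = 0.0602).

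CTSC was the protease that fell. This dipeptidyl peptidase activates granule serine proteases in immune cells. It had 9.84, 10.1 and 10.3 FPKM in the knockdown libraries and 11.6, 12.5 and 13.1 FPKM in the control libraries of D7, F22 and wild type, with no overlap. Its log2 fold change was -0.27 ± 0.04 (limma adjusted p = 0.00700). LGMN, the asparaginyl endopeptidase, stayed between 10.0 and 11.0 FPKM in all 6 libraries, with a log2 fold change of -0.01 ± 0.04. TPP1, a tripeptidyl peptidase, had 11.6, 11.6 and 14.7 FPKM with knockdown against 11.5, 11.8 and 15.9 FPKM with control siRNA, and neither gene passed the test.

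The glycosidases had 1 rise, 2 falls and 5 genes that did not pass, with a median log2 fold change of -0.03. The share that passed, 37.5%, was near the 39.3% of all genes. Their summed level was 179.8, 198.2 and 179.5 FPKM in the knockdown libraries of D7, F22 and wild type, against 188.2, 200.7 and 177.9 FPKM in their control libraries.

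MAN2B1, an alpha-mannosidase of glycoprotein breakdown, was the glycosidase that rose. It had 32.0, 26.7 and 28.3 FPKM with knockdown and 26.4, 23.9 and 24.7 FPKM with control siRNA in D7, F22 and wild type. All knockdown libraries were above all controls, with the widest gap in D7, and the log2 fold change was 0.21 ± 0.04 (limma adjusted p = 0.0133). Without D7 it was not called (adjusted p = 0.0972).

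NAGLU, which removes N-acetylglucosamine from heparan sulfate, fell. Its levels were 23.4, 25.5 and 18.5 FPKM in the knockdown libraries and 29.6, 29.6 and 20.9 FPKM in the control libraries of D7, F22 and wild type. Wild type was the lowest line under both treatments, so the groups overlapped, although each line was lower with knockdown. The log2 fold change was -0.23 ± 0.05 (limma adjusted p = 0.0134), and without D7 or F22 the adjusted p was 0.0888 or 0.0580. GLB1, the beta-galactosidase, had 18.02, 21.5 and 20.7 FPKM with knockdown against 21.3, 22.4 and 23.8 FPKM with control siRNA. Its log2 fold change was -0.16 ± 0.05 (limma adjusted p = 0.0432). This call was lost without any 1 of the lines, with adjusted p from 0.0573 to 0.221, under both other scalings (0.0612 and 0.0835) and without the intensity trend (0.0618).

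The other 5 glycosidases did not pass the test. HEXA, the alpha subunit of beta-hexosaminidase, had 14.5, 16.5 and 16.2 FPKM with knockdown and 14.3, 14.3 and 14.6 FPKM with control siRNA in D7, F22 and wild type (log2 fold change 0.12 ± 0.05, limma adjusted p = 0.108). The log2 fold changes of GAA (acid alpha-glucosidase), GLA (alpha-galactosidase), GUSB (beta-glucuronidase) and NEU1 (sialidase) lay between -0.04 and 0.04, with adjusted p from 0.416 to 0.641.

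Among the genes of lipid breakdown, 2 rose, 1 fell and 2 did not pass. The shares that rose and fell were 40% and 20%, against 17.6% and 21.7% of all genes. The gene that fell was ASAH1. ASAH1, the acid ceramidase that splits ceramide, had 109.8, 149 and 109 FPKM in the knockdown libraries and 171, 252 and 169.8 FPKM in the control libraries of D7, F22 and wild type. F22 had the most under both treatments, and all knockdown libraries were below all control libraries. The level fell by 35.8%, 40.9% and 36.1% in D7, F22 and wild type, and the log2 fold change was -0.68 ± 0.04 (limma adjusted p = 0.00127). With 1 added to each FPKM this was below the value of SCARB2, at -0.54, but the order turned with a pseudocount of 0.1 (-0.68 for ASAH1 and -0.72 for SCARB2) or 0.01 (-0.68 and -0.75).

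SMPD1, the acid sphingomyelinase that forms ceramide from sphingomyelin, rose. It had 6.57, 9.68 and 8.52 FPKM with knockdown against 5.81, 7.30 and 6.37 FPKM with control siRNA in D7, F22 and wild type. The D7 knockdown library was below the F22 control library, so the groups overlapped. The log2 fold change was 0.30 ± 0.06 (limma adjusted p = 0.0148), and the call was lost without F22 (adjusted p = 0.0807) or wild type (adjusted p = 0.0574). PSAP, the precursor of the saposins that help hydrolases reach sphingolipids, had 309, 345 and 310.1 FPKM with knockdown and 269, 292 and 269 FPKM with control siRNA. These groups did not overlap, and the log2 fold change was 0.22 ± 0.03 (limma adjusted p = 0.00581, and 0.0567 without D7).

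PPT1, a palmitoyl-protein thioesterase, averaged 30.2 ± 1.65 FPKM with knockdown and 30.2 ± 2.65 FPKM with control siRNA (SD, n = 3). LIPA, the acid lipase that releases cholesterol from its esters, had 19.3, 30.2 and 19.7 FPKM with knockdown against 17.1, 25.9 and 19.5 FPKM with control siRNA in D7, F22 and wild type. The difference was larger in the clones, with log2 fold changes of 0.17 in D7, 0.21 in F22 and 0.01 in wild type. LIPA did not pass over the 3 lines (0.13 ± 0.05, limma adjusted p = 0.0914) and passed when wild type was left out (adjusted p = 0.0299).

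**Figure D3:**
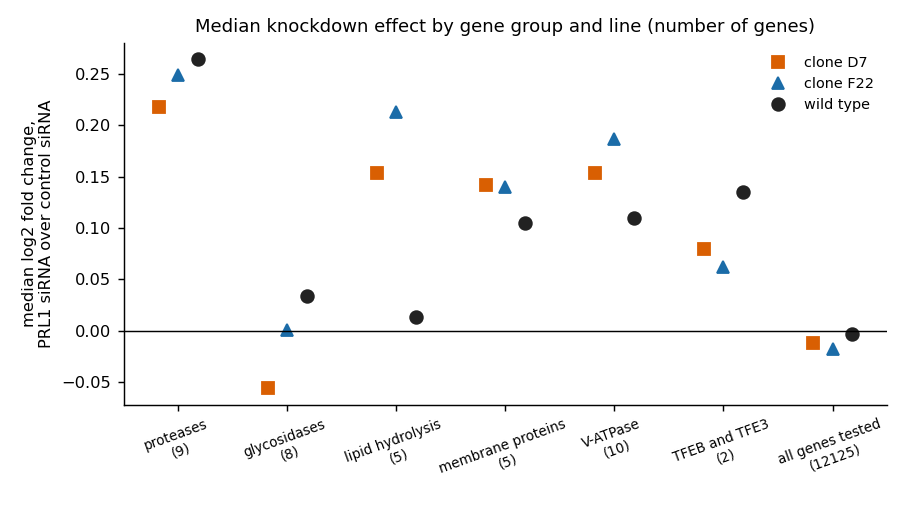
Median log2 fold change of log2(FPKM + 1), knockdown minus control, of each group of lysosomal genes within D7, F22 and wild type (1 point per line). Protease medians are 0.22, 0.25 and 0.26, V-ATPase medians 0.15, 0.19 and 0.11, and glycosidase medians lie near 0.

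Of the 5 membrane proteins, 3 rose, 1 fell and 1 did not pass, with a median log2 fold change of 0.12. Thus 60% rose and 20% fell, against 17.6% and 21.7% of all genes. LAMP1 and LAMP2 are heavily glycosylated proteins that line the lysosomal membrane, and LAMP2 also serves as a receptor in chaperone-mediated autophagy. LAMP2 had 50.4, 52.6 and 51.3 FPKM in the knockdown libraries of D7, F22 and wild type, against 41.6, 42.6 and 46.8 FPKM in their control libraries. LAMP1 had 122, 122 and 119.8 FPKM with knockdown against 111, 110.3 and 114 FPKM with control siRNA. In both genes every knockdown library was above every control library, and the gap was narrowest in wild type. The log2 fold change was 0.23 ± 0.05 for LAMP2 (limma adjusted p = 0.0129) and 0.12 ± 0.03 for LAMP1 (limma adjusted p = 0.0445). Neither passed without D7 (adjusted p = 0.0886 for LAMP2 and 0.211 for LAMP1) or without F22 (0.0716 and 0.182).

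SCARB2, also called LIMP-2, carries glucocerebrosidase to the lysosome, and it fell. It had 2.18, 3.31 and 1.45 FPKM in the knockdown libraries and 3.72, 4.99 and 2.69 FPKM in the control libraries of D7, F22 and wild type. Each line was lower with knockdown, but the lines differed in level, so the F22 knockdown library was above the wild-type control library. The log2 fold change was -0.54 ± 0.06 (limma adjusted p = 0.00273), and at such low FPKM the added 1 understates it. In percent, the change of SCARB2 was -41.4%, -33.6% and -46.1% in D7, F22 and wild type.

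MCOLN1 is the lysosomal calcium channel TRPML1. It had 13.6, 13.0 and 13.7 FPKM with knockdown and 11.8, 11.7 and 12.2 FPKM with control siRNA, with no overlap between groups. Its log2 fold change was 0.16 ± 0.04 (limma adjusted p = 0.0239), and the adjusted p was 0.158, 0.0915 and 0.0529 without D7, F22 and wild type. CD63, a tetraspanin of late endosomes and the most abundant of the 39 genes, had 465, 525 and 540.3 FPKM with knockdown against 457, 509.6 and 502 FPKM with control siRNA and did not pass (limma adjusted p = 0.215).

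Of the 10 chosen V-ATPase subunits, 6 rose (60%, against 17.6% of all genes), 0 fell and 4 did not pass in the limma fit, where 1 (ATP6V1C1) was lower at an unadjusted p under 0.05, with a median log2 fold change of 0.17. The 15 other V-ATPase genes tested had a median of -0.04. In 6 of the chosen 10, all knockdown libraries were above all control libraries, against 6.67% of the 15 others and 12.6% of all genes. All were below in 0 of the chosen 10, against 13.3% of the 15 others and 16.2% of all genes. Their summed level was 610.0, 660.1 and 624 FPKM in the knockdown libraries of D7, F22 and wild type, against 568, 599 and 576 FPKM in their control libraries.

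ATP6V0D1, the d subunit that joins the rotor of V1 to the membrane ring of V0, rose most among the subunits. It had 55.0, 60.6 and 62.3 FPKM in the knockdown libraries and 43.2, 48.9 and 48.8 FPKM in the control libraries of D7, F22 and wild type. The groups were well apart, and the log2 fold change was 0.33 ± 0.03 (limma adjusted p = 0.00234). The other V0 subunit that rose was ATP6V0A1, an isoform of the a subunit through which protons pass. It had 30.1, 31.4 and 38.5 FPKM with knockdown against 26.6, 27.8 and 34.5 FPKM with control siRNA, and its groups overlapped because wild type was highest under both treatments. Its log2 fold change was 0.16 ± 0.03 (limma adjusted p = 0.0163).

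In V1, ATP6V1A is the catalytic subunit and ATP6V1B2 its partner in the nucleotide-binding hexamer. ATP6V1A had 63.1, 71.0 and 65.5 FPKM with knockdown and 51.4, 58.1 and 60.7 FPKM with control siRNA in D7, F22 and wild type. ATP6V1B2 had 40.3, 39.7 and 38.8 FPKM with knockdown and 34.5, 34.3 and 35.0 FPKM with control siRNA. Neither gene had overlapping groups, and their log2 fold changes were 0.23 ± 0.05 and 0.19 ± 0.04 (limma adjusted p = 0.0170 and 0.0123). ATP6V1D, part of the rotor stalk, rose by 0.17 ± 0.04 on the log2 scale (limma adjusted p = 0.0284), also with no overlap. ATP6V1H, which couples ATP use to pumping, had 24.2, 28.7 and 22.5 FPKM with knockdown against 19.9, 22.8 and 21.5 FPKM with control siRNA. Its groups overlapped because the wild-type knockdown library was below the F22 control library, and the log2 fold change was 0.22 ± 0.06 (limma adjusted p = 0.0327). All of these subunits but ATP6V0D1 lost the call without D7 (adjusted p from 0.0901 to 0.167) and without F22 (adjusted p from 0.0708 to 0.150).

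The 4 subunits that did not pass included the most abundant one. ATP6V0C, the proteolipid of the V0 ring, had 209, 233 and 206 FPKM with knockdown against 207, 226 and 192 FPKM with control siRNA. ATP6V1E1, a stator subunit, and ATP6AP1, an accessory subunit, had log2 fold changes of 0.05 and 0.08, although their knockdown libraries were all above their control libraries. ATP6V1C1, which links the stator to V0, had the opposite sign from the other subunits, with 18.7, 20.1 and 15.9 FPKM with knockdown against 21.3, 20.5 and 19.7 FPKM with control siRNA (log2 fold change -0.17 ± 0.06, limma adjusted p = 0.0686).

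Set side by side, the 22 hydrolases had a median log2 fold change of 0.08 and the V-ATPase subunits 0.17. The hydrolase median minus the V-ATPase median was -0.13 in D7, -0.09 in F22 and -0.05 in wild type. This order did not hold outside the 40 genes, where the median was 0.08 over 32 other hydrolases and -0.04 over 15 other V-ATPase genes. The chosen hydrolases were the more spread out, from -0.68 for ASAH1 to 0.57 for CTSS, while the chosen subunits ran from -0.17 for ATP6V1C1 to 0.33 for ATP6V0D1. Across the 39 genes, Pearson's r between mean log level and log2 fold change was 0.30 and Spearman's rho 0.35, against -0.08 and -0.09 over all genes tested. All of these values come from the same 6 libraries and are given as a description.

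**Figure D4:**
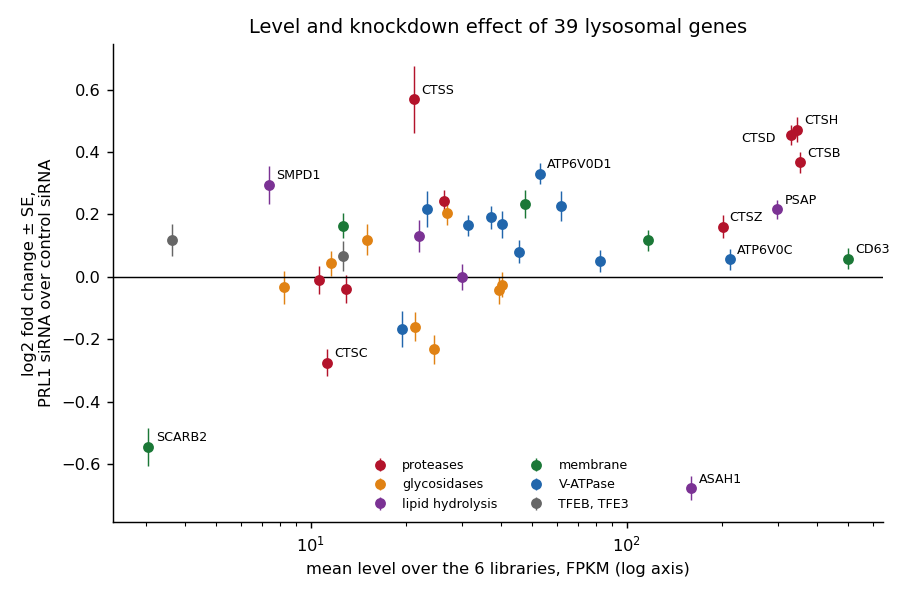
Mean level (FPKM, log axis) against log2 fold change of log2(FPKM + 1), knockdown minus control, with 1 point per lysosomal gene coloured by group and bars for the moderated SE. CTSB, CTSD and CTSH stand at the upper right, and ASAH1 is the abundant gene far below 0.

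TFEB and TFE3 mRNA did not pass the test. TFEB had 3.95, 3.18 and 4.37 FPKM in the knockdown libraries of D7, F22 and wild type, against 3.50, 2.87 and 3.99 FPKM in their control libraries. Each line was higher with knockdown, by less than the lines differed among themselves, and the log2 fold change was 0.12 ± 0.05 (limma adjusted p = 0.127). TFE3 had 12.5, 12.0 and 14.3 FPKM with knockdown against 12.3, 11.9 and 12.7 FPKM with control siRNA (log2 fold change 0.07 ± 0.05, limma adjusted p = 0.310). Both proteins are controlled mainly by phosphorylation and location, which RNA levels do not measure.

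Lysosomal genes outside the 40 were read from further lists. Of 32 other hydrolases tested, 11 rose and 4 fell (34.4% and 12.5%, against 17.6% and 21.7% of all genes), with a median log2 fold change of 0.08. CTSF, another cysteine cathepsin, had 13.8, 14.2 and 14.8 FPKM in the knockdown libraries of D7, F22 and wild type, against 10.2, 11.4 and 11.2 FPKM in their control libraries, a log2 fold change of 0.35 ± 0.04 (limma adjusted p = 0.00361). SIAE and CTSV followed with 0.30 each. CTSO, a cysteine cathepsin too, had 8.83, 8.11 and 9.54 FPKM with knockdown against 11.8, 12.4 and 14.8 FPKM with control siRNA, a log2 fold change of -0.51 ± 0.05 (limma adjusted p = 0.00249). GALC, the galactosylceramidase, and MANBA, the beta-mannosidase, fell by 0.41 and 0.24 on the log2 scale. Cathepsins outside the 40 thus moved both ways, like CTSC and the other proteases among them. Without D7, 2 of the 11 rises and 2 of the 4 falls were called, and without the line term 1 and 1. Among all 12125 genes, 1709 were called without D7 and 416 without the line term.

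Of 22 other lysosomal membrane proteins tested, 8 rose and 3 fell (36.4% and 13.6%, against 17.6% and 21.7% of all genes). SIDT2, a lysosomal protein of nucleic acid uptake, had 8.35, 10.3 and 7.76 FPKM in the knockdown libraries of D7, F22 and wild type, against 5.65, 7.23 and 5.29 FPKM in their control libraries. All knockdown libraries were above all control libraries, and the log2 fold change was 0.47 ± 0.04 (limma adjusted p = 0.00186). The peptide transporter ABCB9 and the cholesterol exporter NPC1 rose by 0.37 and 0.28. LMBRD1, needed for cobalamin export, the amino acid sensor SLC38A9 and OSTM1, the partner of a lysosomal chloride transporter, fell by 0.31, 0.21 and 0.18. When D7 or F22 was left out, 2 rises and 0 falls were called in each fit, and none was called without the line term, where SIDT2 had a limma adjusted p = 0.119. Among all 12125 genes, 1709 were called without D7, 2421 without F22 and 416 without the line term.

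The V-ATPase genes outside the 40 include accessory and assembly factors. Of 15 tested, 7 were lower with knockdown in all 3 lines, 4 were higher in all 3 and 4 were mixed. The shares lower and higher in all 3 were 46.7% and 26.7%, against 35.8% and 31.6% of all genes. Their median log2 fold change was -0.04, and -0.03, -0.016 and -0.06 within D7, F22 and wild type. By the test, 1 rose (ATP6V0B, a V0 proteolipid, by 0.18) and 1 fell (DMXL1, a factor in pump assembly, by 0.21). Each share was 6.67%, against 17.6% and 21.7% of all genes. Neither gene was called without D7 or F22, fits that called 1709 and 2421 of all 12125 genes. ATP6V1B1, the B subunit isoform typical of kidney, had 59.7, 58.6 and 48.7 FPKM with knockdown and 57.0, 55.9 and 54.5 FPKM with control siRNA in D7, F22 and wild type. It was above ATP6V1B2 in all 6 libraries. TCIRG1, the a3 isoform of the a subunit, had 29.1 to 35.2 FPKM over the 6 libraries, near ATP6V0A1, while ATP6V0A4 and ATP6V1G3 were listed at 0 throughout. These isoforms were picked out after their values were seen.

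**Figure D5:**
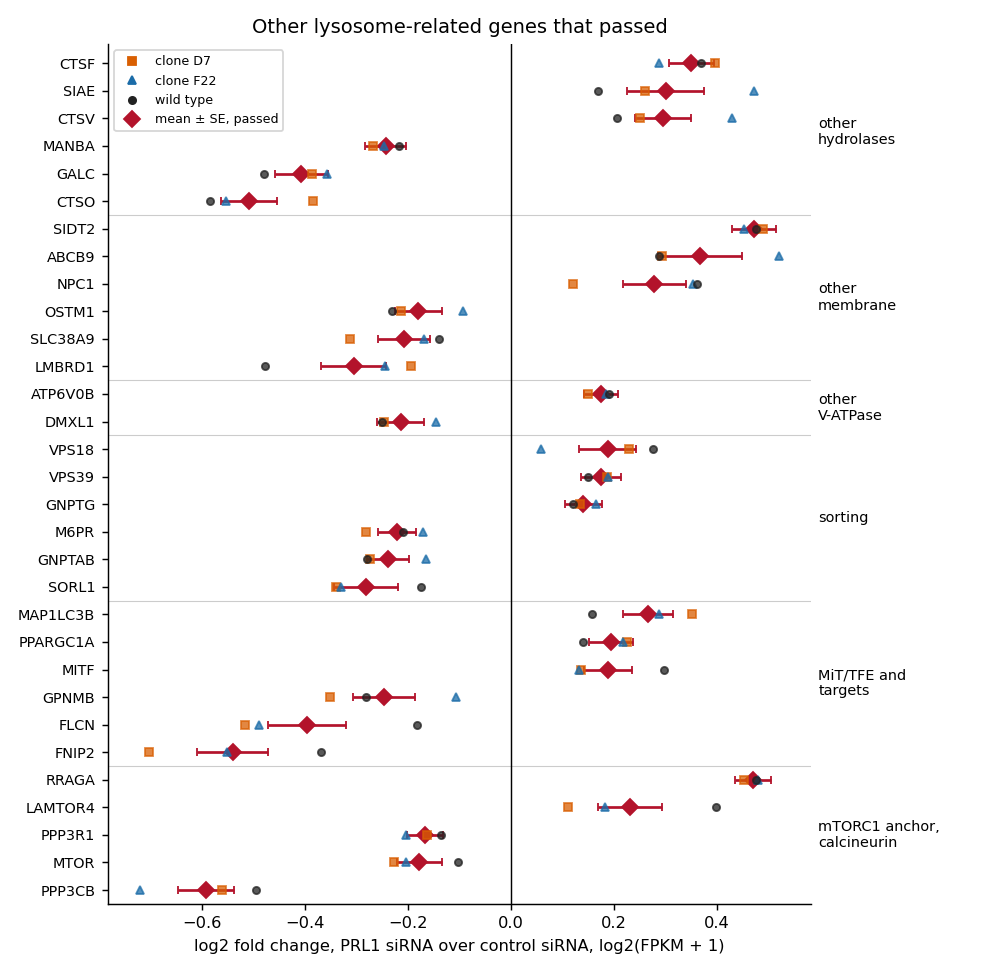
Log2 fold change of log2(FPKM + 1), PRL1 siRNA over control siRNA, of the named genes that passed in each further list (other hydrolases, membrane proteins, V-ATPase genes, sorting, MiT/TFE factors and targets, mTORC1 anchoring and calcineurin), with 1 point per line and the mean with its moderated SE. The mean falls of PPP3CB at -0.59, FNIP2 at -0.54 and CTSO at -0.51 are larger than those of the other genes shown, and the mean rises are led by SIDT2 and RRAGA, both at 0.47.

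Of 23 genes tested that carry hydrolases and other cargo to the lysosome, 4 rose and 6 fell. These shares, 17.4% and 26.1%, were near the 17.6% and 21.7% of all genes. The enzyme that tags hydrolases with mannose 6-phosphate has a catalytic precursor, GNPTAB, and a gamma subunit, GNPTG. GNPTAB fell by 0.24 (limma adjusted p = 0.00927) and GNPTG rose by 0.14. M6PR, a receptor for the tag, had 94.6, 86.7 and 103.9 FPKM in the knockdown libraries and 115, 97.8 and 120.3 FPKM in the control libraries of D7, F22 and wild type. It fell by 0.22 (limma adjusted p = 0.00863), with overlap between the groups. The sorting receptor SORL1 fell by 0.28, and VPS18 and VPS39, of a complex that tethers membranes before fusion with lysosomes, rose by 0.19 and 0.18. When D7 was left out, 0 of the 23 were called, and likewise without the line term. These fits called 1709 and 416 of all 12125 genes.

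Of 14 MiT/TFE factors and target genes tested, 3 rose (MAP1LC3B by 0.27, PPARGC1A and MITF by 0.19) and 3 fell (FNIP2 by 0.54, FLCN by 0.40 and GPNMB by 0.25). Each share was 21.4%, near the 17.6% and 21.7% of all genes. FLCN and FNIP2 form a complex that acts on Rag GTPases. FNIP2 had 10.6, 8.07 and 14.2 FPKM in the knockdown libraries of D7, F22 and wild type, against 17.9, 12.3 and 18.6 FPKM in their control libraries (limma adjusted p = 0.00407). FNIP2 was lower in each line, with overlap between the groups. Without D7 it was the only gene of these 14 that was called, and without the line term 0 of the 14 were called. These fits called 1709 and 416 of all 12125 genes.

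Of 15 genes of mTORC1 anchoring and calcineurin tested, 2 rose and 3 fell (13.3% and 20%, against 17.6% and 21.7% of all genes). RRAGA, a Rag GTPase that brings mTORC1 to the lysosome, had 36.0, 38.6 and 34.3 FPKM in the knockdown libraries of D7, F22 and wild type, against 26.0, 27.4 and 24.4 FPKM in their control libraries. The groups were far apart and the fold was nearly equal in the 3 lines, at 0.45, 0.48 and 0.48 on the log2 scale (limma adjusted p = 0.00151). RRAGA also passed without the line term (adjusted p = 0.0314). PPP3CB, a catalytic subunit of calcineurin, the phosphatase that acts on TFEB, had 12.4, 9.15 and 12.6 FPKM with knockdown against 18.8, 15.7 and 18.2 FPKM with control siRNA. It fell by 0.59 (limma adjusted p = 0.00194, and 0.0706 without the line term), and the groups did not overlap. LAMTOR4 rose by 0.23, and MTOR and PPP3R1, the regulatory calcineurin subunit, fell by 0.18 and 0.17. These 3 calls were lost without D7 (adjusted p = 0.0668 for LAMTOR4, 0.152 for MTOR and 0.0961 for PPP3R1) and without F22 (0.0899, 0.118 and 0.0950), and LAMTOR4 also without wild type (0.0532).

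The knockdown effect was also compared between the clones and wild type, with a limma term for the difference. Of the 39 lysosomal genes 0 passed after adjustment, against 1 of 12125 genes (0.00825%). At an unadjusted p under 0.05, 2 lysosomal genes and 1228 of all genes were counted. The 2 were ATP6V1A, with a difference of 0.18 ± 0.06 in log2 fold change, and ATP6V1H, with 0.23 ± 0.07 (both with adjusted p = 0.473). Both had larger fold changes in the clones, at 0.29 and 0.27 in D7 and 0.28 and 0.32 in F22, than in wild type, at 0.11 and 0.07. Both were picked by that unadjusted threshold, and such genes were a smaller share of the 39 than of all 12125 genes. For CTSS the difference was 0.40 ± 0.17, with limma adjusted p = 0.5002.

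Under control siRNA, the clones and wild type were compared in a limma fit of 4 groups, in which the lone wild-type libraries are assumed to vary like the clones. Of the 39 genes 0 passed, as did 0 of all 12125 genes (0%), and 4 and 1632 had an unadjusted p under 0.05. TPP1 had 11.5 and 11.8 FPKM in D7 and F22 and 15.9 FPKM in wild type. NAGLU had 29.6 FPKM in each clone and 20.9 FPKM in wild type. ATP6V0A1 had 26.6 and 27.8 FPKM in the clones and 34.5 FPKM in wild type, and CTSA 22.6 and 22.8 FPKM against 26.9 FPKM. These 4 genes were picked by the unadjusted p of this fit, and such genes were a smaller share of the 39 than of all 12125. That p tends to be small where the clones are close to each other and apart from wild type. The pattern in these 4 genes is therefore no separate result.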

How the data were processed

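RNA of 6 libraries was sequenced from MDCK cells, after purification with miRNeasy columns and preparation with a TruSeq Stranded mRNA kit, per the labels' protocols. The authors deposited FPKM, with a single value for each symbol in each library. HISAT2 2.1.0, Cufflinks 2.2.1 and Cuffdiff are named, per the submitters' processing notes. Build, annotation and strand handling were not given in the sources used here. Coordinates are therefore omitted, and overlapping or antisense genes may share fragments. FPKM hides the fragment number, so absolute depth is unknown, and relative depth was read from the steps between low values.

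Values were analysed as log2(FPKM + 1) with limma 3.58.1 in R 4.3.3, which understates fold changes of low genes. Genes averaging 1 FPKM or more were kept. The fit had line and treatment as terms, moderated variances with an intensity trend and 2 residual degrees of freedom, with Benjamini-Hochberg adjustment over all 12125 genes at 0.05. The 2 libraries of a line carry the same line label, so line pairs the samples. The clones' deviations under the 2 treatments correlated with r = 0.595 across genes. The difference between clones and wild type in knockdown effect was an added term, and the clones were compared with wild type under control siRNA in a fit of 4 groups. The procedure was tested on simulated data.

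All 40 genes could be named, and from each further list up to 3 genes per direction with the largest fold change among those that passed. The members and lists were chosen with earlier results of these data known. Alternatives were other pseudocounts, filters, scalings, no trend, no line term and each line left out.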

Additional observations from a re-analysis of the deposited data

How the results depend on the processing

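The line is the replicate block of these comparisons, since both libraries of a line carry the same line label. Without the replicate block, the counts of lysosomal genes called higher and lower were 1 and 0 instead of 18 and 5, and 416 of 4762 genes were called. In the 4-group fit of the clones without that block the 3 counts were 0, 0 and 0. When each line was left out in turn, the counts ran from 7 to 17 higher, 3 to 4 lower and 1709 to 4037 in all. With no filter on low values they were 6, 1 and 1179 (27931 genes tested). The median log2 fold change of the membrane proteins was 0.12, against 0.14 with a mean of at least 5 FPKM, with median scaling and in the 4-group fit, and 0.10 to 0.14 with a line left out. The median over the 39 genes was 0.12, against 0.14 with median scaling and 0.093 to 0.12 with a line left out. For the difference in knockdown effect between clones and wild type, 1 gene was called, against 2 with either smaller pseudocount, 0 with no filter, 3 with a mean of at least 5 FPKM, 7 without the trend and 0 without the replicate block. For clones against wild type under control siRNA, 0 genes were called, against 165 with no filter and 4 without the trend. No lysosomal gene that was called changed direction under these alternatives, and the 23 calls were the same with a pseudocount of 0.1 or 0.01. The cause of these changes was not tested. With 1 library per line and treatment, no effect within 1 line has a test.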
